A study of Mus musculus with 15 samples.

Results

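Ethanol was compared with water in mouse livers that carried LbNOX, a bacterial enzyme that burns NADH. The comparison rests on 7 of the 15 RNA-seq libraries of the series, chosen by the group names in the header of the deposited table: 4 LbNOX livers after a water gavage (libraries M6 to M9) and 3 LbNOX livers after an ethanol gavage (M13 to M15). The same contrast in livers that carried luciferase, a light-producing enzyme used as the control construct, is drawn on where the ethanol effects of the constructs were tested against each other; it holds 5 water libraries (M1 to M5) and 3 ethanol libraries (M10 to M12). All tissue was taken 6 h after the gavage. The labels give the construct under genotype. The text on the series' design names wild-type and ChREBP animals instead, so whether the animals also carried a ChREBP change is not settled here. The strain, sex and age of the mice, the dose of ethanol and the way each construct reached the liver were not given in the sources used here. Whether each library is a different animal is likewise not stated; p-values here reflect spread among libraries, which may be technical.

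The liver clears ethanol in steps that each consume NAD+. Alcohol dehydrogenase in the cytosol makes acetaldehyde, aldehyde dehydrogenase in the mitochondria makes acetate, and both hand electrons to NAD+, so the ratio of NADH to NAD+ climbs while ethanol is being burned. LbNOX, from Lactobacillus brevis, passes the electrons of NADH to oxygen and forms water, without making ATP. The comparison therefore asks what a dose of ethanol does to liver RNA when an added enzyme can take up the NADH.

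Levels are normalized counts, reads divided by a factor for each library. The water group held 13.7 to 20.6 M recovered reads per library and the ethanol group, the shallower one, 10.6 to 15.7 M. Pairs of replicates had a Pearson r across genes of 0.919 to 0.961 in the water group and 0.939 to 0.950 in the ethanol group. Among the water libraries M8 had the lowest mean r to the other 3, 0.932, followed by M9 at 0.939, with M6 and M7 both at 0.949. Exocrine pancreas genes were high in M8, with Prss2 at 898 against 0 to 10.9 and Cela2a at 1011 against 6.92 to 37.5 in the other 6 LbNOX libraries. The median level of the 11 hepatocyte markers tested was 0.50 below its average in M8 on the log2 scale. The liver label itself was borne out by albumin, whose RNA ran from 355970 to 667630 in water and from 420970 to 551040 in ethanol libraries. RNA of LbNOX and of luciferase itself was not analysed here. In bulk tissue, fewer cells of a type and less RNA per cell cannot be told apart.

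Of 13570 genes tested, 1 passed an adjusted p of 0.05 in LbNOX livers (0.00737%), and it was lower after ethanol. Tarsl2, which encodes a cytosolic threonyl-tRNA synthetase, fell to less than its level in any water liver. At an unadjusted p under 0.05 there were 777 genes higher (5.73%) and 794 lower (5.85%), or 1571 in all (11.6%). The 3 ethanol libraries lay wholly above the 4 water libraries for 735 genes (5.42%) and wholly below for 745 (5.49%). These shares over all genes are the background for the counts within gene lists given below. On the recovered reads, edgeR called 1 gene and put 1516 at an unadjusted p under 0.05. DESeq2 called 282 (2.08%), 125 higher and 157 lower. Groups did not overlap for 258 of the 282, but the same values gave the calls, so this is no separate check. Without M3 and M8 together, the luciferase water and LbNOX water libraries with the lowest mean r to their own groups, the test called 116 genes, 58 in each direction. The count without M14, an ethanol library, was 28, of which 23 were lower. In luciferase livers the same test called 1052 genes (7.75%), of which 627 rose (4.62% of those tested) and 425 fell (3.13%).

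The precision of these values limits what could be seen. The median 95% interval of a fold change reached 0.50 to either side on the log2 scale, or 0.41 for genes with a mean of at least 100. Fold changes over all genes were centred, with a median of -0.0039. Genes other than Tarsl2 are described below by their values, since none of them passed the test in LbNOX livers.

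Tarsl2 lies on chromosome 7 of GRCm38 (chr7:65644898-65692091, plus strand, ENSMUSG00000030515.9). Its level was 448, 442, 360 and 519 in the water livers M6 to M9. In the ethanol livers M13 to M15 it was 209, 199 and 189. The groups did not overlap, and the ethanol values lay close together. The log2 fold change was -1.14 (SE 0.15, adjusted p = 0.0287, limma). In luciferase livers it was -0.21 (SE 0.14, adjusted p = 0.451), and the difference between the constructs, LbNOX minus luciferase, was -0.93 (SE 0.21, adjusted p = 0.0394). The LbNOX values that gave the call also enter that difference, so it is no separate support. The call rests on few libraries: leaving out 1 of the 15 at a time gave an adjusted p between 0.00777 (without M8) and 0.166 (without M6), and it missed the threshold without M1, M2, M4, M5, M6, M7, M9, M13 or M15. It also missed the threshold when only the 7 LbNOX libraries were fitted (adjusted p = 0.147, limma) and without the mean-variance trend (adjusted p = 0.0607). The fold change itself stayed between -1.23 and -1.06. Tm2d3 overlaps Tarsl2 on the same strand, and its own values had a log2 fold change of 0.05 (SE 0.21).

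The 250 bases before the RefSeq start of Tarsl2 (chr7:65644648-65644897 of GRCm38.p6, plus strand) are shown because it is the single gene called. They were searched, on both strands, for an E-box (CACGTG), a D-box (TTATGTAA), an orphan receptor element (TAGGTCA or TGGGTCA) and a cAMP response element (TGACGTCA), the motifs used for the clock genes below. None of these letters occurred in the window.
Tarsl2: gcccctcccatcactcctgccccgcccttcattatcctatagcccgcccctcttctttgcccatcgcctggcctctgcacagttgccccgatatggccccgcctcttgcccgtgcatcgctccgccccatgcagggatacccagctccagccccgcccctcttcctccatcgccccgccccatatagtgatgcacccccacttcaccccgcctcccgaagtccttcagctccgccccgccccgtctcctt

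Aminoacyl-tRNA synthetases load amino acids onto tRNAs for translation. Of 41 members tested, 1 was called, and the median log2 fold change was -0.07. Groups did not overlap for 6 members that were lower and 2 that were higher. Of the 6 that were lower, Sars2, Wars2 and Ears2 are mitochondrial enzymes. Sars2, the mitochondrial seryl enzyme, read 222, 198, 172 and 234 in water and 147, 156 and 121 in ethanol (log2 fold change -0.54, SE 0.14, adjusted p = 0.155). Wars2, the mitochondrial tryptophanyl enzyme, read 170, 159, 160 and 137 against 129, 122 and 64.1. Aimp2, a scaffold of the cytosolic synthetase complex, read 205, 191, 209 and 219 against 131, 156 and 109 (-0.65, SE 0.20, adjusted p = 0.214). The other threonyl enzymes gave no such gap. Tars, the main cytosolic form, read 1268, 1437, 1190 and 1266 against 1189, 1474 and 1129, a log2 fold change of -0.04 (95% interval -0.33 to 0.26). It rose in luciferase livers by 1.07, and the difference was -1.11 (adjusted p = 0.0106). Tars2, the mitochondrial form, had a fold change of -0.20 (SE 0.12) in LbNOX livers and -0.21 in luciferase livers.

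**Figure D1:**
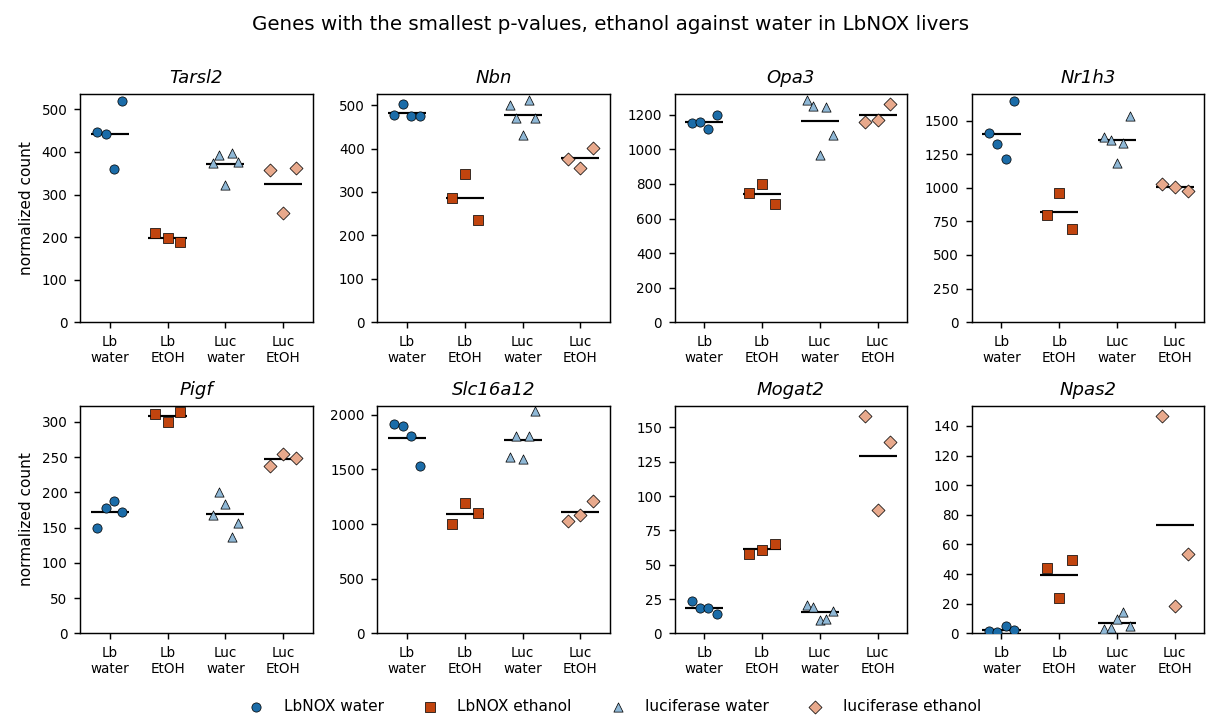
Normalized counts (y axis, from 0) of 8 genes with small p-values for ethanol against water in LbNOX livers, by group (x axis; Lb, LbNOX; Luc, luciferase; EtOH, ethanol). Each point is 1 library and each bar the mean of its group. The 3 LbNOX ethanol libraries lie outside the range of the 4 LbNOX water libraries in every panel, while Opa3 and Tarsl2 overlap between the luciferase groups.

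After Tarsl2, the second smallest adjusted p was 0.0716, shared by 16 genes, and 50 genes had one below 0.1, 17 of them higher and 33 lower. The genes described next were chosen from that end of the ranking after their values were seen. The LbNOX values that chose them enter the difference between the constructs, so its test gives them no separate support. Nbn, part of the complex that senses DNA double-strand breaks, read 477, 503, 474 and 476 in water and 285, 341 and 235 in ethanol (-0.76, SE 0.12). Its water values were nearly level, and every ethanol value was below them. Opa3, a mitochondrial protein linked to optic atrophy, read 1155, 1161, 1120 and 1199 against 746, 800 and 683 (-0.64, SE 0.11). In luciferase livers Opa3 stood at 1167 ± 137 (SD, n = 5) after water and 1198 ± 56.8 (SD, n = 3) after ethanol, and the difference between the constructs passed the test (-0.69, SE 0.15, adjusted p = 0.0387).

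Nr1h3 encodes LXR-alpha, the oxysterol receptor that drives lipogenic and cholesterol-export genes. It read 1407, 1325, 1214 and 1648 in water and 794, 964 and 694 in ethanol (-0.78, SE 0.13), without overlap. Its luciferase fold change was -0.43 (adjusted p = 0.0505). Slc16a12, a creatine transporter, read 1913, 1897, 1804 and 1535 against 996, 1193 and 1098 (-0.70, SE 0.12), and it fell in luciferase livers by a similar 0.67. Pmf1, a kinetochore protein, read 435, 424, 419 and 480 against 242, 266 and 291. Aven, an inhibitor of apoptosis, read 229, 230, 204 and 234 against 126, 129 and 158. Their luciferase fold changes were -0.0008 and -0.08, but neither difference between the constructs passed the test (adjusted p = 0.0533 and 0.0838).

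Some genes at this end of the ranking were higher after ethanol. Pigf, which adds ethanolamine phosphate to GPI anchors, read 150, 177, 188 and 173 in water and 311, 300 and 314 in ethanol (0.85, SE 0.14). Mogat2, which acylates monoacylglycerol on the way to triglyceride, read 23.8, 18.8, 18.5 and 13.9 against 58.1, 61.0 and 65.3 (1.68, SE 0.31, adjusted p = 0.0716). Both rose in luciferase livers, by 0.56 and 3.01. Smim1, a small membrane protein, read 174, 185, 209 and 186 against 397, 341 and 342 (0.93, SE 0.18, adjusted p = 0.0798) and rose in luciferase livers by 0.74. Itih5, a secreted matrix protein, read 413, 348, 457 and 296 against 793, 610 and 891 (1.01, SE 0.20). Its luciferase fold change was -0.22, and the difference between the constructs passed the test (1.23, SE 0.27, adjusted p = 0.0366). Ctdsp1, a phosphatase of RNA polymerase II, read 3436, 3269, 3411 and 3288 in water and 2249, 2352 and 1903 in ethanol (-0.63, SE 0.13); it fell in luciferase livers by 0.69. DESeq2 called Nbn, Opa3, Nr1h3, Slc16a12, Pmf1, Aven, Pigf, Mogat2, Smim1, Itih5 and Ctdsp1 in LbNOX livers, whereas edgeR gave them adjusted p-values between 0.0955 and 0.0996.

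Among genes with a mean of at least 100 and groups that did not overlap, the largest differences are given as a description, since the values chose them. Egr1, an immediate early transcription factor, read 96.1, 248, 327 and 92.0 in water and 678, 428 and 836 in ethanol (1.92, SE 0.70). Mpzl1, a membrane glycoprotein, read 43.5, 51.6, 112 and 54.2 against 277, 129 and 244. Ikbip, an endoplasmic reticulum protein, read 46.8, 64.8, 83.9 and 45.4 against 187, 147 and 232 (1.65, SE 0.33, adjusted p = 0.0825). Jam2, Grk5, Npnt, Mapt, Hr, Scara5, Ccdc157 and Bcl6 had fold changes between 1.27 and 1.52. M8 held the highest water value for Egr1, Mpzl1, Ikbip, Jam2, Grk5, Npnt, Mapt and Hr. Morc3 headed this group only because it was listed at 0 in M6, M7 and M8; it was 557 in M9 and 876, 643 and 746 in the ethanol livers, and it was also at 0 in 3 of the 5 luciferase water livers.

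On the lower side, H2-Q5 is a class I histocompatibility gene annotated as a polymorphic pseudogene, with close relatives among which reads can be split. It read 1163, 1878, 594 and 1029 in water and 118, 143 and 111 in ethanol (-3.12). In luciferase livers H2-Q5 ranged from 111 to 1761 after water and from 64.1 to 2438 after ethanol, so it varied as widely within groups there. Msrb2, a mitochondrial methionine sulfoxide reductase, read 330, 324, 165 and 418 against 49.8, 121 and 50.8 (-2.10, SE 0.43). Hypk, a ribosome-associated chaperone that shares its locus with Serf2, read 318, 211, 243 and 287 against 52.6, 76.7 and 133 (-1.67, SE 0.34). Zfp407, a zinc finger protein, read 412, 374, 404 and 319 against 88.6, 189 and 155 (-1.44, SE 0.26, adjusted p = 0.0716). In luciferase livers Zfp407 stood at 185 ± 45.4 (SD, n = 5) after water and 309 ± 73.6 (SD, n = 3) after ethanol. That is a fold change of 0.74 in the opposite direction (adjusted p = 0.0851), and the difference was -2.18 (adjusted p = 0.0081). The water levels of Zfp407 in both constructs, with a mean of 377 in LbNOX livers, enter that difference. Its LbNOX values chose the gene, so the test gives no separate support. Xlr3a, Ctps2, Erdr1, Serpinb8, Cmtr1 and Efna5 had fold changes between -2.17 and -1.08. Osbpl11 entered through 1 library: it was listed at 0 in M13 and was 524 and 502 in M14 and M15, against 569 to 596 in water.

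The enzymes that burn ethanol were next. Of 17 genes of ethanol and acetate metabolism tested, 0 were called, and the median was -0.16. Adh1, the main liver alcohol dehydrogenase, read 28377, 26384, 19254 and 33845 in water and 23478, 26065 and 20851 in ethanol (-0.18, 95% interval -0.64 to 0.28). Aldh2, which oxidises acetaldehyde, read 21029, 19297, 15747 and 20578 against 18229, 18680 and 14551 (-0.16, -0.55 to 0.23). Cyp2e1, the microsomal ethanol oxidase, read 51155, 49649, 21795 and 56994 against 29746, 42614 and 30786 (-0.31, -1.29 to 0.66). For all of these the groups overlapped, and M8 was the lowest water library. Acss2, which activates acetate, had a fold change of -0.07 (SE 0.18). Slc16a1, the monocarboxylate carrier, read 1341, 1553, 1986 and 1235 against 2231, 1794 and 2231 (0.46, SE 0.20, adjusted p = 0.390).

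Cytosolic NADH reaches the mitochondria through the malate-aspartate and glycerol phosphate shuttles, or is spent on lactate. Of 16 genes of the shuttles and lactate, 0 were called in LbNOX livers and 4 in luciferase livers. Got1, the cytosolic aminotransferase of the malate-aspartate shuttle, was the member whose groups did not overlap: 2675, 3095, 1837 and 2991 in water and 4168, 4108 and 4499 in ethanol (0.71, SE 0.28, adjusted p = 0.341). It rose in luciferase livers by 1.27 (adjusted p = 0.00831), and the difference did not pass the test (adjusted p = 0.523). Gpd1, the cytosolic enzyme of the glycerol phosphate shuttle, read 7382, 7657, 6141 and 6379 against 7793, 8273 and 5648 (0.06, 95% interval -0.48 to 0.60). Gpd1 rose in luciferase livers by 1.48, with a difference of -1.42 (adjusted p = 0.0560). Its mitochondrial partner Gpd2 had a fold change of 0.04 (-0.34 to 0.41) in LbNOX livers and rose by 0.98 in luciferase livers. Ldha, which interconverts pyruvate and lactate, had a fold change of 0.16 (-0.20 to 0.52).

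Genes that make and use NAD+ had a median of -0.19 over the 23 tested, with 0 called and 4 whose groups did not overlap, all lower. Qprt makes the NAD+ precursor nicotinate mononucleotide from tryptophan breakdown; it read 3828, 4014, 3302 and 4186 in water and 3086, 2838 and 2623 in ethanol (-0.43, SE 0.13, adjusted p = 0.225). Nmnat1, the nuclear enzyme that completes NAD+, read 532, 483, 521 and 643 against 324, 453 and 308 (-0.60, SE 0.20, adjusted p = 0.252). Nampt, which recycles nicotinamide, read 2308, 2354, 2050 and 2057 against 1706, 1771 and 1604 (-0.37, SE 0.13). Nampt fell in luciferase livers by 0.55 (adjusted p = 0.0117), where Qprt and Nmnat1 had fold changes of -0.09 and 0.13; no difference between the constructs passed the test for any of them. Sirt5, a mitochondrial deacylase, was listed at 0 in M13 and was 177 and 109 in M14 and M15.

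ChREBP, encoded by Mlxipl, is the transcription factor that turns sugar phosphates into a signal for glycolytic and lipogenic genes. Of its 17 listed genes, 0 were called in LbNOX livers with a median of -0.16, whereas 15 rose in luciferase livers with a median of 1.81. The difference between the constructs was called for 10 of the 17, all lower in LbNOX livers, against 1.67% of all genes. Acly, which makes cytosolic acetyl-CoA, read 4382, 3629, 3262 and 3990 in LbNOX water and 4078, 4832 and 2827 in LbNOX ethanol livers (0.01, 95% interval -0.48 to 0.50). In luciferase livers it went from 3558 ± 380 (SD, n = 5) to 24197 ± 9275 (SD, n = 3). G6pc, the glucose-6-phosphatase, read 6136, 6243, 2500 and 5119 against 3859, 6436 and 2930, and Fgf21, a secreted hormone, read 92.8, 55.5, 74.7 and 45.4 against 37.4, 73.8 and 39.9. Both sets overlapped. Mlxipl (0.05), Pklr (-0.06), Fasn (0.06) and Txnip (-0.35) also had intervals that covered 0, and their values ranged across each other in the 2 groups.

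At an unadjusted p under 0.05 there was 1 member higher, Elovl6, and 1 lower, Mid1ip1, among the 17, which is near the share over all genes (5.73% and 5.85%). Elovl6, which lengthens palmitate, read 1459, 1687, 1502 and 1487 in LbNOX water and 2438, 2656 and 2264 in LbNOX ethanol livers, without overlap (0.68, SE 0.28, adjusted p = 0.376). It rose by 2.62 in luciferase livers, and the difference of -1.95 passed the test (adjusted p = 0.0230). Mid1ip1, an activator of acetyl-CoA carboxylase, read 1095, 1156, 781 and 668 against 401, 835 and 511 (-0.70, SE 0.31), opposite in sign to its rise of 1.57 in luciferase livers. Of 21 lipogenesis genes, among them Acly, Elovl6, Fasn, Gpam, Mid1ip1 and Thrsp of the ChREBP list, 0 were called and the median was -0.07. Fads2, a fatty acid desaturase, read 6547, 6603, 3898 and 5506 against 2585, 4014 and 3642 (-0.72, SE 0.22, adjusted p = 0.201); it fell in luciferase livers by 0.84. Agpat2, which acylates lysophosphatidate, read 2064, 2027, 1671 and 2642 against 1813, 1517 and 1210 (-0.47), and its difference was called (-1.29, adjusted p = 0.0366).

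**Figure D2:**
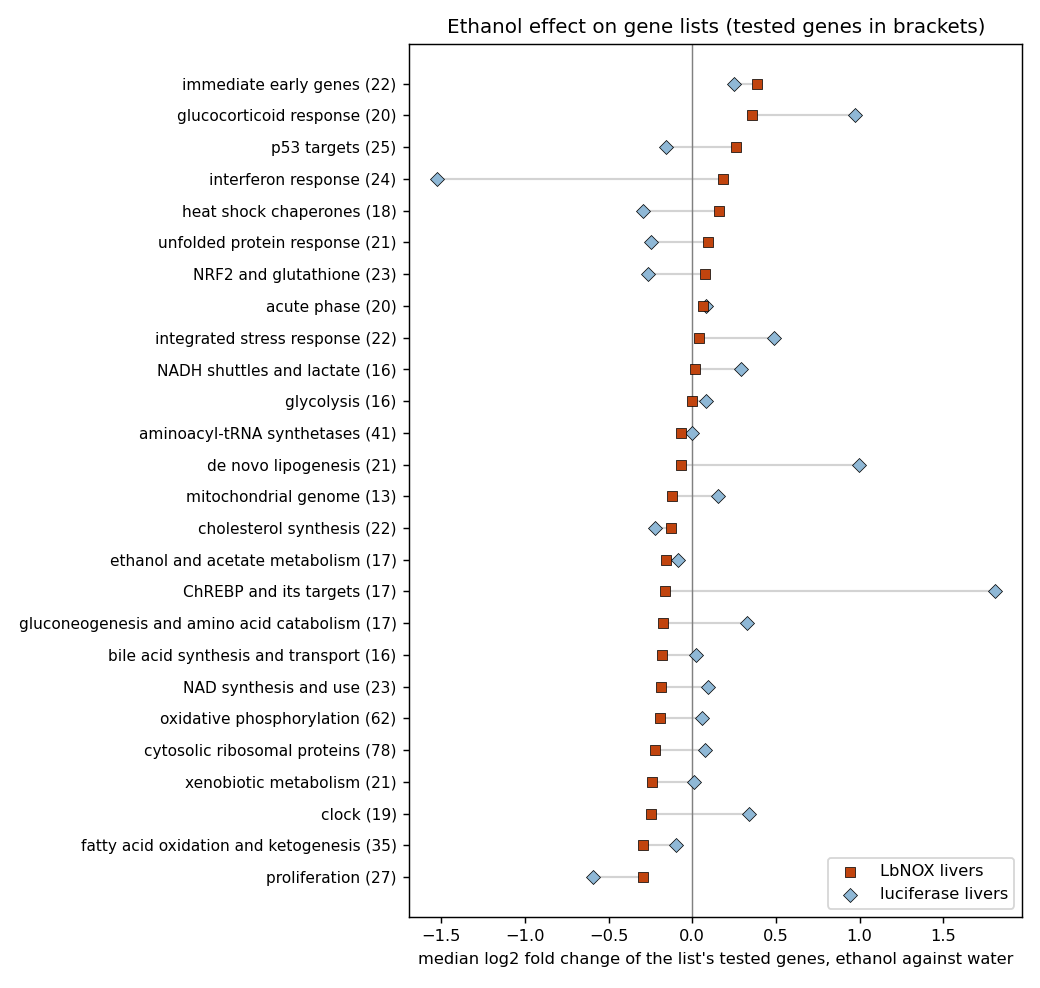
Median log2 fold change of ethanol against water (x axis) for the tested genes of each of 26 response lists (y axis), in LbNOX livers (squares) and luciferase livers (diamonds), with no error drawn. In LbNOX livers the medians lie between -0.29 and 0.38, while the ChREBP list is at 1.81 and the interferon list at -1.52 in luciferase livers.

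The circadian clock is a loop in which Arntl (BMAL1) with Clock or Npas2 drives the Per, Cry and Nr1d genes and output factors such as Dbp, and those repress or oppose the drivers. Of 19 clock genes tested, 0 were called in LbNOX livers; at an unadjusted p under 0.05, 6 were lower and 3 higher, and the median was -0.25. Npas2 read 1.64, 0.781, 4.62 and 2.52 in water and 44.3, 23.6 and 49.6 in ethanol livers (3.63, SE 0.67, adjusted p = 0.0716), without overlap. It rose in luciferase livers by 2.92 (adjusted p = 0.0113). Nr1d2, a repressor of Arntl and Npas2, read 2361, 2242, 2154 and 2187 against 1310, 1786 and 1485 (-0.56, SE 0.13, adjusted p = 0.127). Nr1d2 fell in luciferase livers by 0.51 (adjusted p = 0.0244).

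Dbp, a D-box activator, read 1013, 770, 422 and 1341 in water and 163, 504 and 162 in ethanol (-1.78, SE 0.51, adjusted p = 0.182); the groups met at M8 and M14. It fell by 1.90 in luciferase livers. Sphk2, which overlaps Dbp on the other strand, had a fold change of -0.84 (SE 0.27), and reads of the pair cannot be told apart without strand. Per3 read 643, 487, 235 and 868 against 185, 426 and 181 (-1.05, SE 0.43), Per2 read 440, 427, 277 and 512 against 214, 364 and 186 (-0.72, SE 0.32), and both again overlapped through M8 and M14. Usp2, a rhythmic deubiquitinase, read 1558, 1784, 501 and 1876 against 519, 547 and 391 (-1.40, SE 0.62). Per1 had a fold change of -0.26 (SE 0.26).

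Arntl read 10.7, 33.6, 46.2 and 17.6 in water and 123, 43.3 and 138 in ethanol (1.90, SE 0.87, adjusted p = 0.422), with M14 inside the water range. Nfil3, the D-box repressor, read 138, 212, 166 and 185 against 534, 253 and 190 (0.76, SE 0.34). Hlf, a D-box activator like Dbp, was the 1 clock gene with a called difference: its fold change was -0.34 in LbNOX livers and 1.24 in luciferase livers (adjusted p of the difference = 0.0123).

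**Figure D3:**
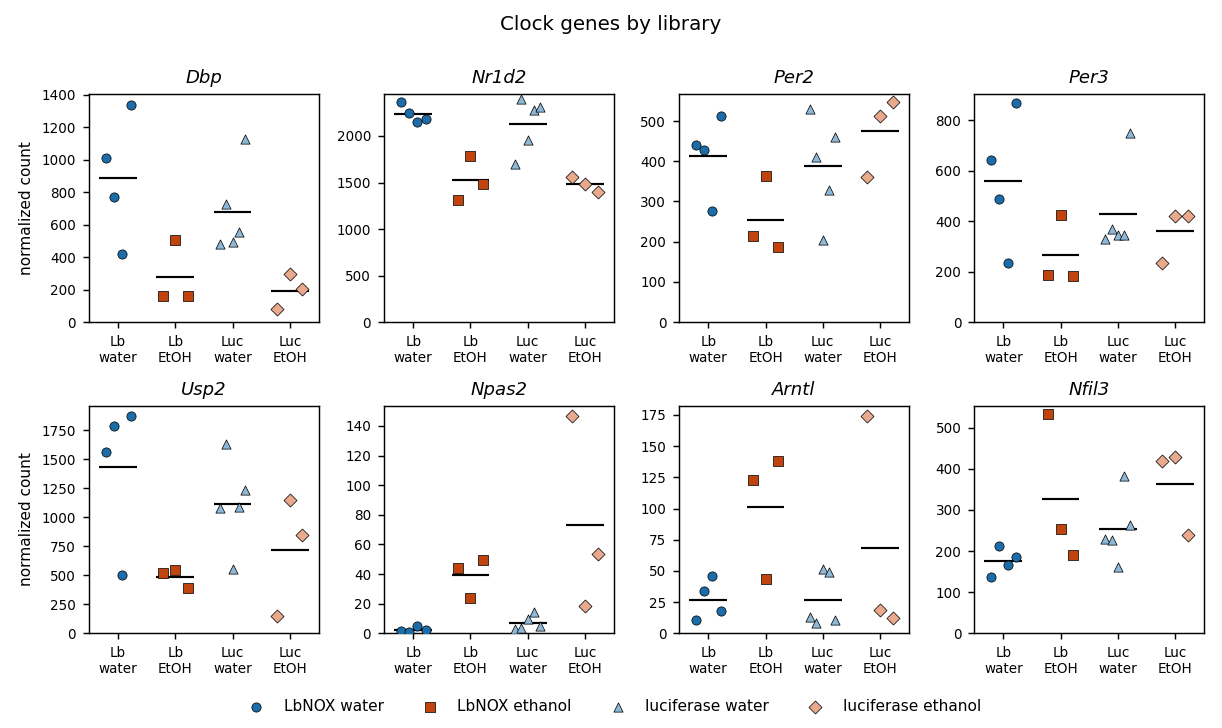
Normalized counts (y axis, from 0) of 8 clock genes by group (x axis; Lb, LbNOX; Luc, luciferase; EtOH, ethanol), with 1 point per library and a bar at each group mean. Nr1d2 and Npas2 are the panels in which the LbNOX groups do not overlap, and in Dbp, Per2, Per3 and Usp2 the water library M8 lies near the ethanol values.

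Promoters of 7 clock genes, Npas2, Arntl, Dbp, Nr1d2, Usp2, Per3 and Nfil3, were searched for the motifs named above, in the 250 bases before each RefSeq start (GRCm38.p6); those of the other clock genes were not searched. Npas2, Arntl (at each of its 2 starts), Dbp, Nr1d2 and Usp2 held none of the letters in that window. The windows of Usp2 (chr9:44084670-44084919) and Npas2 (chr1:39194022-39194271) lie inside the annotated genes, which begin at 44067021 and 39193731. Bases before those upstream gene starts were not searched. Near matches and bases past the start were not searched either. The promoter of Per3 (chr4:151044666-151044915, minus strand) held 2 D-boxes, 205 and 158 bases before the start, and a D-box occurred in 0.819% of 32851 promoters. The promoter of Nfil3 (chr13:52981040-52981289, minus strand) held TAGGTCA on the other strand 12 bases before the start, and that element occurred in 2.23% of promoters. The share of promoters with an E-box was 6.02%, with TGGGTCA 3.24% and with the cAMP element 1.55%. The Per3 and Nfil3 promoters are shown because, of the 7 genes searched, they held a match; capitals mark it. A match describes the letters and is not evidence of binding.
Per3: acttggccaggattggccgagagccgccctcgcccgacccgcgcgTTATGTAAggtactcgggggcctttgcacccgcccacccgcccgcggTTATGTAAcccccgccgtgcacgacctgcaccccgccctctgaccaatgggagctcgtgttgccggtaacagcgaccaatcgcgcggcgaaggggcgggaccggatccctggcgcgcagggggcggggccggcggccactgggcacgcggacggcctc
Nfil3: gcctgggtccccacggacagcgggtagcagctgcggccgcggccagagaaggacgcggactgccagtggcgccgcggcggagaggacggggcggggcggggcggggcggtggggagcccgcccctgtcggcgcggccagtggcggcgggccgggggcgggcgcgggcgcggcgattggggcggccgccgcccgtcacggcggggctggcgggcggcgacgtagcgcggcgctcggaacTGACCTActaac

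Immediate early genes respond within minutes to growth factors and stress. Of 22 tested, 0 were called; 8 were higher and 0 lower at an unadjusted p under 0.05, and the median of 0.38 was the highest of the 26 response lists. Fos read 16.4, 25.8, 45.4 and 12.6 in water and 74.7, 53.1 and 82.2 in ethanol (1.58, SE 0.50, adjusted p = 0.225), without overlap. Ier5 read 169, 172, 273 and 107 against 367, 245 and 335 (0.86, SE 0.26, adjusted p = 0.204); its luciferase fold change was -0.69, and the difference of 1.55 passed the test (adjusted p = 0.0466). Btg2, an antiproliferative early gene that p53 also induces, read 378, 523, 599 and 341 against 1247, 587 and 768 (0.88, SE 0.31).

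Genes that p53 induces had 0 calls among 25, with 5 higher and 0 lower at an unadjusted p under 0.05 and a median of 0.26. Polk, a translesion DNA polymerase, read 300, 253, 357 and 219 against 531, 358 and 509 (0.72, SE 0.19, adjusted p = 0.156); the groups came close, at 357 in M8 and 358 in M14. Trp53inp1 read 3193, 3824, 4034 and 1889 against 8056, 3926 and 7120 (0.97, SE 0.29, adjusted p = 0.197). Cdkn1a, the cell cycle inhibitor p21, read 1522, 2288, 3454 and 1082 against 4424, 3205 and 3822 (0.99, SE 0.33). Gdf15, a stress hormone, read 265, 302, 340 and 234 against 540, 444 and 342 (0.62, SE 0.21). This list shares Btg2 with the immediate early list, Cdkn1a with the glucocorticoid list and Gdf15 with the integrated stress response list.

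Heat shock chaperones refold proteins. Of 18 tested, 0 were called, 3 were higher and 0 lower at an unadjusted p under 0.05, and the median was 0.16. Hspb1 read 273, 221, 377 and 236 in water and 639, 383 and 526 in ethanol (0.90, SE 0.25, adjusted p = 0.172). Hspa1a, the inducible HSP70, read 11.5, 10.9, 25.4 and 20.2 against 24.9, 36.4 and 39.9 (1.00, SE 0.37), and its co-chaperone Bag3 read 736, 838, 890 and 728 against 1097, 1209 and 825. In luciferase livers 5 of the 18 fell and the median was -0.29, with 0 called in the difference. Across these 3 lists M8 was the highest water library for Fos, Egr1, Ier5, Btg2, Cdkn1a, Trp53inp1, Polk, Gdf15, Hspb1 and Hspa1a. Without M8 the list medians were 0.42 for the immediate early genes, 0.26 for the p53 targets and 0.16 for the chaperones.

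**Figure D4:**
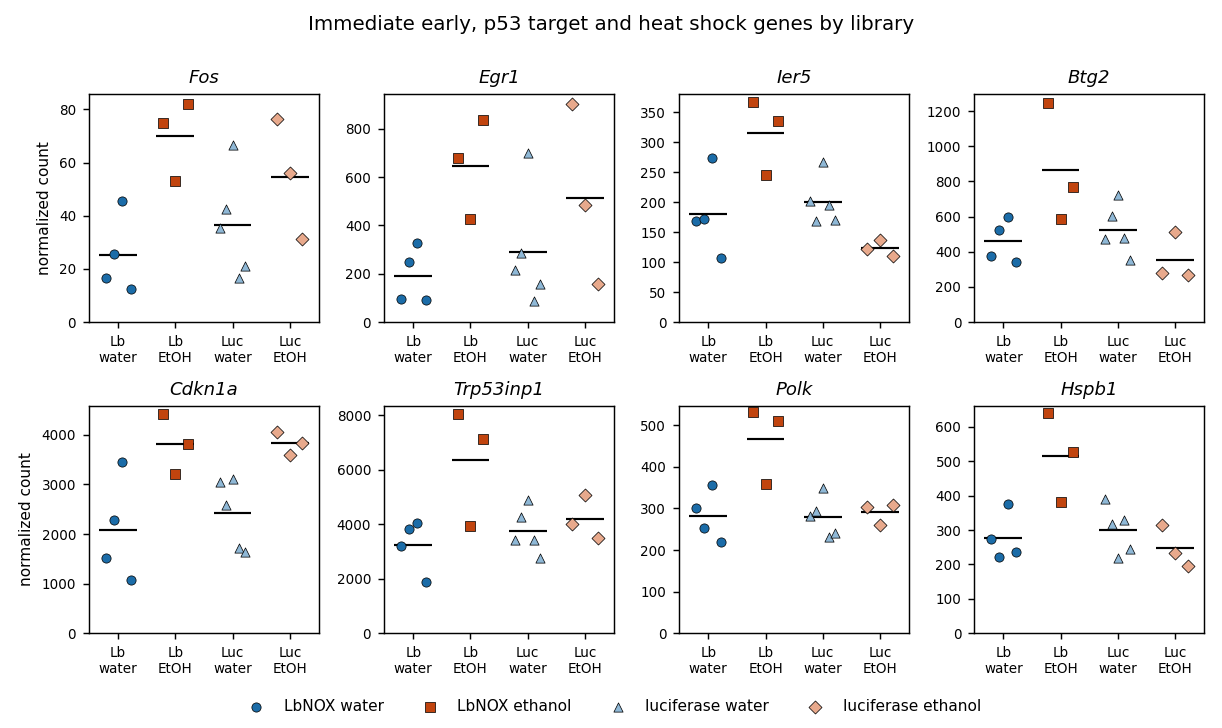
Normalized counts (y axis, from 0) of 4 immediate early genes, 3 p53 targets and Hspb1 by group (x axis; Lb, LbNOX; Luc, luciferase; EtOH, ethanol), with 1 point per library and a bar at each group mean. LbNOX ethanol means exceed LbNOX water means in every panel, and the groups do not overlap in Fos, Egr1, Polk and Hspb1.

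Other stress programs gave smaller values. Of 22 genes of the integrated stress response, 0 were called and the median was 0.04; Vldlr, a lipoprotein receptor, read 136, 108, 95.5 and 93.2 against 248, 176 and 225 (1.00, SE 0.34, adjusted p = 0.276). The unfolded protein response had a median of 0.10 over 21 genes and 0 at an unadjusted p under 0.05 in either direction. NRF2 and glutathione genes had a median of 0.08 over 23; Hmox1, which degrades heme, read 432, 464, 1036 and 318 against 1059, 608 and 965. The 20 glucocorticoid-responsive genes had a median of 0.36, with 3 higher and 0 lower at an unadjusted p under 0.05, while 8 of them rose in luciferase livers with a median of 0.97. Bcl6, a repressor that glucocorticoids and fasting induce, read 216, 138, 154 and 126 against 537, 316 and 312 (1.27, SE 0.37, adjusted p = 0.182), and its luciferase rise was 1.27. Ddit4, an inhibitor of mTORC1, read 412, 420, 373 and 373 against 850, 494 and 507 (0.60, SE 0.19); it rose by 1.65 in luciferase livers, and the difference did not pass the test (adjusted p = 0.0610). Ahr, the dioxin receptor, read 774, 732, 1180 and 548 against 1673, 1116 and 1220 (0.76, SE 0.27) and was the 1 xenobiotic gene of 21 at an unadjusted p under 0.05.

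Fatty acid oxidation and ketogenesis genes lay mostly below their water levels: of 35 tested, 31 had a negative fold change, 5 had groups that did not overlap, all lower, against 5.49% of all genes, and 0 were called (median -0.29). Cpt1a, which admits fatty acids to mitochondria, read 11214, 12471, 7158 and 10650 in water and 5467, 6656 and 6451 in ethanol (-0.72, SE 0.23, adjusted p = 0.246), and it fell by 0.84 in luciferase livers. Plin2, a coat protein of lipid droplets, read 11408, 11832, 13106 and 10765 against 9560, 8911 and 9127 (-0.35, SE 0.16). Bdh1, of ketone body formation, read 4280, 3905, 2744 and 4058 against 2929, 2842 and 2173. Eci2, of unsaturated fatty acid oxidation, read 5368, 5878, 4276 and 5539 against 4164, 3836 and 4166. Creb3l3, a fasting regulator of lipid genes, read 6325, 5981, 5172 and 6780 against 3952, 5037 and 4480 (-0.43, SE 0.13, adjusted p = 0.197), with a luciferase fold change of 0.05. The 17 genes of gluconeogenesis and amino acid catabolism, Creb3l3 among them, had a median of -0.17, and the 16 glycolysis genes one of -0.0044.

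Cholesterol genes had a median of -0.13 over 22, with 4 lower and 0 higher at an unadjusted p under 0.05 and 0 called. Insig1, which retains SREBP in the endoplasmic reticulum, read 2779, 2719, 2248 and 3574 against 1633, 2189 and 1848 (-0.57, SE 0.18, adjusted p = 0.230) and fell by 0.96 in luciferase livers. Hsd17b7 read 417, 452, 357 and 370 against 275, 289 and 283 (-0.49, SE 0.14, adjusted p = 0.182). Fdft1, the squalene synthase, had a fold change of -0.34 (SE 0.14). Among 16 bile acid genes Slc10a1, the bile acid importer, was listed at 0 in M13, and the list median was -0.18.

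Lists of abundant housekeeping genes were shifted by small amounts. Of 62 nuclear genes of oxidative phosphorylation, 61 had a negative fold change, yet 0 reached an unadjusted p under 0.05 and the median was -0.19. The median over 78 cytosolic ribosomal proteins was -0.22, with 2 lower at an unadjusted p under 0.05, Rpl13 (-0.29, SE 0.13) and Rpl12 (-0.41, SE 0.15). The 13 mitochondrial genome transcripts had a median of -0.12. Library levels of these lists overlapped between groups: the ribosomal list stood at 0.01, -0.10, -0.28 and 0.40 in M6 to M9 and at -0.10, -0.18 and -0.33 in M13 to M15, on a centred log2 scale. Under quantile normalization the medians were -0.13, -0.14 and 0.04 for oxidative phosphorylation, ribosomal proteins and the mitochondrial genome.

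Genes of cell division had 7 lower and 0 higher at an unadjusted p under 0.05 among 27 tested, with a median of -0.29 and 0 called. Tk1, thymidine kinase, read 424, 477, 296 and 629 in water and 280, 280 and 279 in ethanol (-0.65, SE 0.22, adjusted p = 0.264). Cdc20, which drives exit from mitosis, read 610, 748, 537 and 839 against 382, 397 and 513, without overlap, and fell in luciferase livers. Birc5, survivin, read 352, 466, 262 and 470 against 212, 215 and 317. Mcm3, of the replicative helicase, read 831, 752, 812 and 661 against 589, 622 and 582.

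Neutrophil markers had the largest median of any list, 1.96, but at low levels: 7 of the 13 listed were tested, 4 were higher at an unadjusted p under 0.05, and no marker had groups that did not overlap. S100a8, an alarmin, read 9.04, 3.91, 31.6 and 0 in water and 113, 22.6 and 32.6 in ethanol (2.83, SE 0.93, adjusted p = 0.257). S100a9 read 9.86, 18.8, 85.5 and 16.4 against 227, 34.4 and 97.9. Mmp8 and Retnlg followed the same libraries, with 51.2 and 55.4 in M13 and at most 13.1 and 15.4 in water. M13 was the highest library for all of these, M8 the highest water library, and M14 lay within the water range. The summed level of the list ran from 121 to 331 in water and from 193 to 756 in ethanol libraries.

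Saa3, an acute phase gene that macrophages also make, read 534, 692, 1524 and 440 in water and 3177, 1289 and 1799 in ethanol (1.46, SE 0.41, adjusted p = 0.182); its luciferase fold change was -0.93, and the difference of 2.40 missed the threshold (adjusted p = 0.0503). Hamp, the iron hormone hepcidin, read 3335, 3497, 2597 and 4688 against 5592, 4570 and 4841 (0.53, SE 0.25). The 20 acute phase genes had a median of 0.06. Ehd3, of sinusoidal endothelium, read 382, 291, 437 and 307 against values from 177 to 244 (-0.76, SE 0.19, adjusted p = 0.136), without overlap. Vwf and Clec4g, also endothelial, had fold changes of -0.84 (SE 0.36) and -0.50 (SE 0.22). Ehd3, Vwf and Clec4g were the 3 of 15 endothelial markers at an unadjusted p under 0.05, and the list did not lean their way: 9 of the 15 had a positive fold change, Lyve1 among them at 0.93 (SE 0.49), and the median was 0.04.

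Markers of the other cells gave the following medians, with 0 called in any list: hepatocytes -0.02 (11 genes), pericentral hepatocytes -0.12 (12), periportal hepatocytes -0.12 (11), macrophages -0.03 (11), monocytes 0.22 (6), T and NK cells -0.24 (13), B and plasma cells -0.24 (4), stellate cells and fibroblasts 0.09 (14), cholangiocytes 0.32 (9) and red blood cells -0.51 (6). By library, the red blood cell list stood at -1.26 in M13, -0.08 in M14 and -0.15 in M15, on a centred log2 scale. Its LbNOX water libraries ran from -0.16 to 0.39. The pancreas and fat list was at -0.87 with M8 and at 0.32 without it. The part of cell composition in the values above was not tested.

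The interferon response set the constructs apart in the other direction. Of 24 genes tested in LbNOX livers 0 were called and the median was 0.18, while in luciferase livers 14 fell, where 3.13% of all genes did, and the median was -1.52. The difference was called for 3, all higher, against 0.427% of all genes. Summed over the list, levels after water ran from 17671 to 40861 in luciferase livers and from 10285 to 15580 in LbNOX livers. After ethanol they ran from 6787 to 14275 and from 12260 to 14776. Water levels of both constructs enter the difference, and whether the constructs differed after water was not tested. Rsad2, an antiviral enzyme, read 659, 545, 805 and 559 in LbNOX water and 875, 910 and 1178 in LbNOX ethanol livers, without overlap (0.63, SE 0.54), against a fall of 1.96 in luciferase livers. Usp18, which restrains interferon signalling, read 707, 649, 672 and 596 against 905, 799 and 845 (0.37, SE 0.28), and its luciferase fold change was -0.02. Stat2, a transducer of the interferon signal, had a fold change of 0.17 (SE 0.17) and a called difference of 1.06 (adjusted p = 0.0405).

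Genes called in luciferase livers were then read in LbNOX livers, with which they share no library. Of the 627 genes that rose in luciferase livers (4.62% of all), 89 were higher (14.2%) and 27 lower (4.31%) at an unadjusted p under 0.05 in LbNOX livers, where all genes gave 5.73% and 5.85%. Their median log2 fold change was 0.05 in LbNOX livers and 1.00 in luciferase livers. Of the 425 that fell (3.13% of all), 57 were lower (13.4%) and 15 higher (3.53%), with a median of -0.12 against -0.89. Both constructs enter 1 fit and share its estimate of the spread between libraries.

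**Figure D5:**
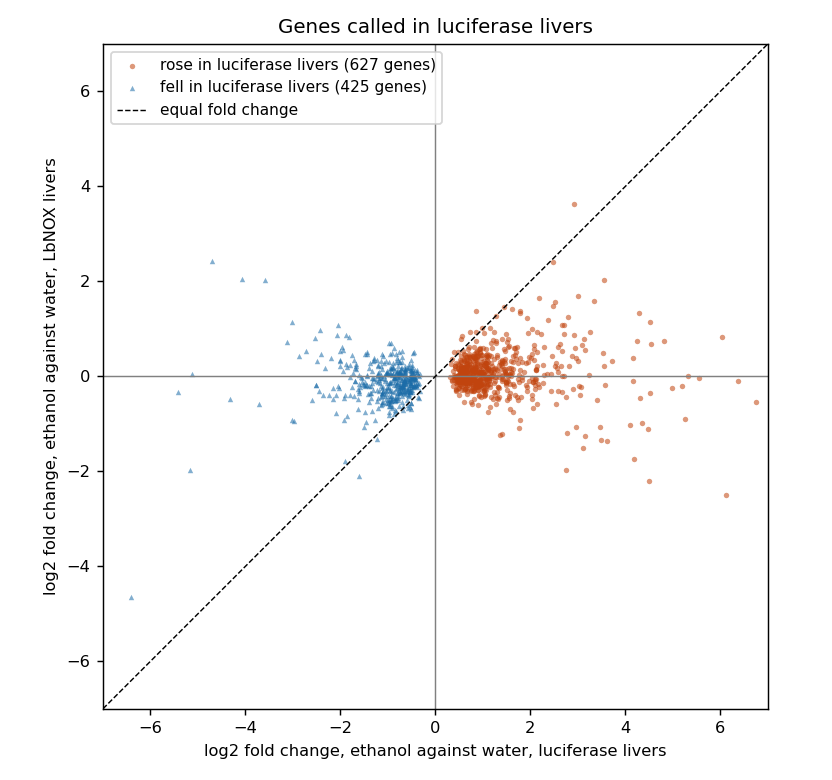
Log2 fold change of ethanol against water in LbNOX livers (y axis) against that in luciferase livers (x axis) for the 627 genes that rose (circles) and the 425 that fell (triangles) in luciferase livers, 1 point per gene. Most points lie near 0 on the y axis and away from the dashed line of equal change; medians on the y axis are 0.05 and -0.12.

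The genes with the largest rises in luciferase livers had low or overlapping values in LbNOX livers. Adcy10, the soluble adenylyl cyclase, went from 4.40 ± 3.18 (SD, n = 5) to 526 ± 216 (SD, n = 3) in luciferase livers, and read 0, 6.25, 0 and 2.52 in LbNOX water and 2.77, 0 and 0 in LbNOX ethanol livers. Col9a3, a collagen chain, read 1.64, 3.12, 1.54 and 11.3 against 2.77, 3.93 and 2.42. Sorcs2, a sorting receptor, read 3.29, 3.91, 6.93 and 1.26 against 1.38, 8.85 and 2.42. Slc2a4, the insulin-responsive glucose transporter, read 203, 110, 38.5 and 110 against 116, 199 and 196, while its luciferase mean rose from 76.4 to 1349. Plcxd1 read 50.9, 42.2, 27.7 and 52.9 against 42.9, 72.8 and 38.7. Slc34a2, a phosphate transporter, read 39.4, 14.8, 25.4 and 7.56 against 49.8, 41.3 and 36.3 (1.14, SE 0.65). The difference passed the test for Adcy10, Col9a3, Sorcs2, Slc2a4 and Plcxd1, with values from -7.27 to -3.33, and not for Slc34a2 (adjusted p = 0.0792).

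Among the largest falls in luciferase livers, Cyp7a1, which begins the conversion of cholesterol to bile acids, read 3114, 3020, 2272 and 2328 in LbNOX water and 2142, 4108 and 3027 in LbNOX ethanol livers (0.17, 95% interval -0.54 to 0.88; difference 2.49, adjusted p = 0.0159). Cxcl10, an interferon-induced chemokine, read 379, 358, 806 and 266 against 378, 602 and 613 (difference 2.82, adjusted p = 0.0281). Tgtp1, an interferon-induced GTPase, read 2463, 3121, 6485 and 1245 against 4658, 3658 and 7034 (difference 3.34, adjusted p = 0.0481). Gbp11 read 100.2, 90.6, 148 and 142 against 87.2, 149 and 87.1, and BC023105 read 448, 506, 1134 and 359 against 638, 785 and 1000, each with a called difference. For Ifit1, Nutf2-ps1 and Acot3 the difference missed the threshold (adjusted p = 0.201, 0.230 and 0.132). Acot3, a peroxisomal thioesterase, was the one that also read lower in LbNOX livers without overlap: 935, 820, 553 and 490 against 371, 419 and 284 (-0.93, SE 0.45). The fall in luciferase livers chose all of these genes and enters the difference, so its test gives them no separate support.

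The difference of the ethanol effects was called for 227 genes (1.67%), 169 lower in LbNOX livers (1.25%) and 58 higher (0.427%). Of these, 157 were called in luciferase livers and had an unadjusted p of 0.05 or more in LbNOX livers. The other way round, 70 of the 227 had an unadjusted p under 0.05 in LbNOX livers. Fold changes had opposite signs in the constructs for 60 of the 70. Selection on a large difference itself favours opposite signs, so that count is a description only. Genes from the 70 are described without support from the test, which chose them. Bcl3, a regulator of NF-kappaB, read 307, 394, 339 and 315 in LbNOX water and 255, 265 and 229 in LbNOX ethanol livers (-0.44, SE 0.15) and rose by 0.96 in luciferase livers. Prkab1, a subunit of the energy sensor AMPK, read 647, 630, 543 and 648 against 523, 532 and 491 (-0.26, SE 0.11) and rose by 0.70. For both genes the LbNOX groups did not overlap and the ethanol values were the lower ones.

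Noxo1, an organizer of an NADPH oxidase, read 26.3, 27.3, 100.1 and 16.4 against 16.6, 13.8 and 8.46, and rose by 3.48 in luciferase livers. A4gnt, a glycosyltransferase, was at or below 8.82 in every LbNOX library and rose by 4.49 in luciferase livers. Apol10b read 23.8, 37.5, 47.7 and 21.4 against 44.3, 58.0 and 72.5 (0.86, SE 0.31) and fell by 1.89 in luciferase livers. Ttc25 and Frmd8 had fold changes of the same sign in the constructs. Ttc25, of ciliary dynein docking, read 61.6, 42.2, 44.7 and 83.2 against 107, 111 and 60.5 (0.67, SE 0.28) and rose by 4.54 in luciferase livers. Frmd8 read 394, 481, 606 and 408 against 739, 681 and 1022, without overlap (0.78, SE 0.20, adjusted p = 0.15), and rose by 3.14.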

How the data were processed

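RNA-seq libraries of mouse liver were read from 1 deposited table of gene values for 15 libraries. Per the submitters' processing notes, Salmon 1.5.1, DESeq2 1.30.1 and mm10 were used; the order of steps and the annotation were not given in the sources used here. The deposited values are a signal, read counts that the authors divided by a factor for each library; they were whole multiples of 1 read within 0.001, which gave back whole reads. Libraries were grouped by the table's header. Of 16330 genes listed, the 13570 with a value of at least 10 in 3 or more libraries were tested with limma 3.58.1 (mean-variance trend, robust) on log2(value + 1), in 1 fit of the 4 groups, with Benjamini-Hochberg adjustment at 0.05 (R 4.3.3). Fold changes are on that scale and understate changes of low genes. The script was tested on simulated data. Alternatives included tests of the recovered reads with edgeR 4.0.16 and with DESeq2 1.42.0. Named genes were every gene called, the 12 largest per direction with a mean of at least 100 and groups that did not overlap, members of the gene lists, and the largest luciferase and difference results. The members and lists were chosen with earlier results of these data known. Names of 23 genes had been turned into dates in the table and stayed unnamed. Results for some genes are not reported here.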

Additional observations from a re-analysis of the deposited data

Results flagged for a closer look

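By Dixon's ratio at its 95% critical value, 12 of 139 genes checked in the 4 LbNOX water livers had 1 library set apart. Chance gives this for about 1 gene in 20. M8 was the library set apart for 8 of the 12. In M8, Prss2 was 898, Cela2a 1011, Aven 204, Mpzl1 112, Adh4 1397, Per1 446, S100a9 85.5 and Noxo1 100.1. M9 stood apart for Morc3 at 557, Vwf at 195 and Col9a3 at 11.3, and M7 for Nbn at 503. The ratio compares a gap with the range of the 4 values, so small gaps pass where values are close. The other water libraries held 1353 to 1359 for Adh4, 229 to 234 for Aven and 474 to 477 for Nbn.

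The difference between the ethanol effects, LbNOX minus luciferase on the log2 scale, passed the test for 30 of the genes checked. Among genes of the lists it was -0.93 for Tarsl2, -1.11 for Tars, -3.74 for G6pc, -2.69 for Acly, -2.23 for Fgf21, -1.95 for Elovl6, -2.27 for Mid1ip1 and -1.29 for Agpat2. It was above 0 for Ier5 at 1.55, Stat2 at 1.06, Cxcl10 at 2.82 and Cyp7a1 at 2.49. Cxcl10 and Cyp7a1 also belong to the genes with the largest luciferase effects. Among the genes with the smallest p-values it was -0.69 for Opa3, -2.18 for Zfp407 and 1.23 for Itih5. Among the genes with the largest luciferase effects it was -7.27 for Adcy10, -6.49 for Col9a3, -5.59 for Sorcs2, -3.87 for Ttc25, -3.52 for Slc2a4, -3.33 for Plcxd1, 3.26 for BC023105, 3.34 for Tgtp1 and 2.34 for Gbp11. The genes chosen on the difference itself had -2.35 for Frmd8, -1.40 for Bcl3, -4.82 for Noxo1, 2.75 for Apol10b, -0.95 for Prkab1 and -6.70 for A4gnt. For these genes, for Tarsl2 and the others with the smallest p-values, and for those with the largest luciferase effects, the values that chose them enter the difference. The test therefore gives them no separate support.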

How the results depend on the processing

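The 1 call in LbNOX livers became 0 without the mean-variance trend, 2 with only the LbNOX libraries, 282 with DESeq2 and 116 without M3 and M8; leaving out each library in turn gave 0 to 28 (28 without M14, 3 without M3, 2 without M8 and 2 without M15). Tarsl2 was not among the 2 called with only the LbNOX libraries, nor among the 2 called without M15. Genes at an unadjusted p under 0.05 numbered 2811 without M3 and M8, and 1027 (without M13) to 2392 (without M8) with 1 library left out. The 227 called differences became 151 without the trend, 633 with DESeq2, 382 without M3 and M8, and 70 (without M15) to 402 (without M8) with 1 library left out. Groups that did not overlap numbered 887 to 1823 on the higher side and 875 to 1978 on the lower side with 1 LbNOX library left out. No paired analysis was possible because the columns carry library numbers that are not tied to the replicate numbers of the labels. The cause of these changes was not tested.

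Fold changes near 0 changed sign under some alternatives. Without M3 and M8 the log2 fold change was -0.0626 for Acly, -0.20 for Fasn, -0.11 for Mlxipl, 0.0762 for Cela2a, 0.0334 for Prss2 and 0.25 for Sorcs2. With quantile normalization it was 0.25 for Col9a3, 0.0315 for Pklr and 0.0289 for Sorcs2; Sorcs2 was also at 0.0166 with a pseudocount of 8, 0.16 with edgeR and 0.16 with DESeq2. With 1 library left out the values ran from -0.15 to 0.0403 for Tars, -0.22 to 0.0488 for Acss2, -0.0482 to 0.23 for Gpd1, -0.11 to 0.12 for Gpd2, -0.19 to 0.35 for Mlxipl, -0.48 to 0.0829 for G6pc, -0.36 to 0.10 for Pklr, -0.16 to 0.23 for Acly, -0.34 to 0.45 for Fasn, -3.24 to 0.0334 for Prss2, -1.86 to 0.0762 for Cela2a, -1.17 to 0.0327 for Adcy10, -0.36 to 0.40 for Col9a3, -0.63 to 0.40 for Sorcs2, -0.0486 to 0.40 for Plcxd1, -0.47 to 0.0331 for Ifit1 and -0.0608 to 0.41 for Cyp7a1.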
